A study of Mus musculus with 11 samples.

Results

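The genes described here are the G protein, RGS and cAMP signalling genes of sympathetic neurons from the mouse stellate ganglion, the paravertebral ganglion that supplies the forelimb and the upper trunk. They were chosen by gene symbol alone. The rule takes heterotrimeric G protein alpha, beta and gamma subunits, regulators of G protein signalling (RGS), adenylyl cyclases, cyclic nucleotide phosphodiesterases of the families 1 to 4 and 7 to 10, and the catalytic and regulatory subunits of protein kinase A (PKA). It found 77 of the 19444 genes in the table: 11 alpha, 6 beta and 10 gamma subunits, 18 RGS genes, 10 cyclases, 16 phosphodiesterases, 2 catalytic and 4 regulatory PKA subunits. The symbol rule also took in Gng2-ps1, a pseudogene, Gnb1l, which is not a G beta subunit, and Rgs7bp and Rgs9bp, which bind RGS proteins rather than being RGS proteins. Gnas, the gene of the stimulatory alpha subunit, is outside the rule and is given with the neighbouring pathway genes.

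Stellate ganglia came from 6 male C57BL/6J mice aged 6 to 8 weeks. Every mouse carried a pair of retrograde tracers, CTB-488 from the forelimb and CTB-555 from interscapular brown fat (iBAT), and ganglia were taken 3 days after injection, so no untraced or untreated group exists. Ganglia of 2 mice were pooled into each of 3 sets, and single sorted cells filled 4, 4 and 3 plates of the sets. The study states 1039 cells, and the expression table holds 878, which the authors placed in 4 numbered clusters without names. No cell could be tied to a tracer here, so the comparisons are between clusters, with the set of pooled animals as the replicate (n = 3). How the clusters were made is not stated in the sources used here, and they were taken to rest on the same expression values. A p-value here therefore tells how well a difference repeated over the sets and is no independent test that the clusters are distinct.

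Each plate held 65 to 85 cells and 2050165 to 3373157 counts, and the median cell had 32923.5 counts. The plates reuse 96 cell barcodes, and each of the 878 cells shares its barcode sequence with a cell of another plate. Clusters 1 (388 cells) and 2 (335 cells) carried noradrenergic markers (9 genes, Th and Dbh among them) at a summed 103 to 119 and 127 to 147 counts per 10000 over the sets. Cluster 4 (54 cells) had 37.1 to 51.7 for that list and 65.4 to 74.4 for 7 cholinergic markers, which stood at 4.08 or less in clusters 1 and 2 and in the high-count cells of cluster 3. Cluster 3 mixed 48 cells of at least 10000 counts (median 68058) and 53 cells below it (median 2658), and these were kept apart. Summed glial markers (8 genes) were 5.72 to 7.74 in cluster 1, 6.7 to 16.6 in cluster 2, 11.7 to 30.4 in cluster 4 and 3.62 to 4.14 in the high-count cells of cluster 3, and their part in the results below was not tested. Levels below are mean counts per 10000 counts of a cell, given for Set 1, Set 2 and Set 3 in that order. Differences are on the log2 scale, taken between cluster means of log2(1 + counts per 10000) averaged over cells, with the standard error (SE), and this scale understates the change of genes with low levels.

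Receptors coupled to G proteins act through the alpha subunit, which binds GTP, and the beta-gamma dimer released from it. Stimulatory alpha subunits raise the activity of adenylyl cyclase, inhibitory ones lower it, and the Gq class activates phospholipase C. RGS proteins speed GTP hydrolysis by the alpha subunit and so shorten the signal. Cyclic AMP (cAMP) made by the cyclases binds the regulatory subunits of PKA and frees the catalytic subunits, and phosphodiesterases degrade it. In sympathetic neurons, inhibitory G proteins acting through beta-gamma reduce calcium entry and transmitter release, and Gq signalling closes potassium channels of the M type.

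Promoters were read for the letters of the cAMP response element, since CREB family factors bind it. The full element TGACGTCA reads the same on both strands, and its cores TGACG and CGTCA are each other's reverse complement, so both strands were covered, and a full element counts as an overlapping pair of cores. RefSeq promoter windows (GRCm38.p6, 250 bases before to 50 after each start) existed for 60 of the 77 genes, with 106 windows. The full element occurred in 2 of these 106 windows (1.89%) and in 1.79% of all 32851 windows, and a core in 26 (24.5%) against 20.8%. Counted per gene, which rises with the number of windows a gene has, a core occurred in 24 of the 60 genes (40.0%) and in 23.0% of all 27025 genes, and the full element in 1.67% and 2.03%. These shares are given with no test. Both full elements belong to Prkar1a and are the same genomic site seen from a pair of neighbouring starts. The bases before the start are shown for Prkar1a, which holds the full element, and for Gng4 and Rgs2. Gng4 and Rgs2 hold 2 cores each and differed between clusters. Rgs4 and Prkaca, which also differed between clusters, and Gnb1 hold 2 cores each too and are not shown. The genes shown were chosen after the matches were seen. Capitals mark the cores and the full element.
Prkar1a, chr11:109650699-109650948, plus strand: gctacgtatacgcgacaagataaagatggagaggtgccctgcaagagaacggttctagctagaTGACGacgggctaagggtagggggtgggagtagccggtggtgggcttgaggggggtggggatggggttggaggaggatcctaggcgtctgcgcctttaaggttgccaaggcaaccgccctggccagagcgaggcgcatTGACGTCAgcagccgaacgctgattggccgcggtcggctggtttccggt
Gng4, chr13:13784057-13784306, plus strand: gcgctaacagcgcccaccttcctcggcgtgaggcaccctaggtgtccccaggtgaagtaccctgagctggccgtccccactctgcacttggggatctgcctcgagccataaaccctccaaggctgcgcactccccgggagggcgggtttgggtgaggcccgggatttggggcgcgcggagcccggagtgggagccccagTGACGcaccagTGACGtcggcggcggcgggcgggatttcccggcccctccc
Rgs2, chr1:144004150-144004399, minus strand: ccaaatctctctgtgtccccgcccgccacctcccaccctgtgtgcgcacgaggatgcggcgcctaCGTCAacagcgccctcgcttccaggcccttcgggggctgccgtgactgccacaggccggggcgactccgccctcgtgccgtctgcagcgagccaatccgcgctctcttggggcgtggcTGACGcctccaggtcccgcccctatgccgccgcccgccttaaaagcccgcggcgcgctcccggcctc
In Prkar1a the full element begins 49 bases before the start and a further core 187 bases before it. The cores begin 51 and 40 bases before the Gng4 start of the window shown and 185 and 67 bases before the Rgs2 start. The other Gng4 window, chr13:13783809-13784108, spans the annotated gene start at 13784059 and holds 0 cores. Prkar1a also has windows with 0 cores, chr11:109648773-109649072, chr11:109650292-109650591 and chr11:109651092-109651391. A match describes letters and is not a measured binding site.

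Of the 77 genes, 61 reached a mean of 0.05 counts per 10000 over clusters 1, 2 and 4 and were tested, and 16 were not. Between cluster 2 and cluster 1, 14 of the 61 passed an adjusted p of 0.05, 8 higher and 6 lower in cluster 2 (23% of the 61), where 8.86% of the 10564 genes tested passed (5.27% higher, 3.59% lower). Between cluster 4 and cluster 1, 30 passed, 15 in each direction (49.2%), against 21.3% of all genes tested (11.9% higher, 9.49% lower). Between cluster 4 and cluster 2, 34 passed, 13 higher and 21 lower in cluster 4 (55.7%), against 20.0% (9.13% higher, 10.9% lower). The median absolute log2 difference of the tested genes was 0.057, 0.143 and 0.126 in these comparisons, against 0.032, 0.051 and 0.050 over all genes. Median signed differences were 0.01, −0.02 and −0.07, against 0.011, 0.006 and −0.006. The 3 comparisons share their samples. Rgs6, Adcy2, Adcy5, Pde1a and Pde3b reached the level filter only through cluster 4, so the counts describe the tested genes and support nothing further. Without set as a block the counts fell to 7, 17 and 17.

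**Figure D1:**
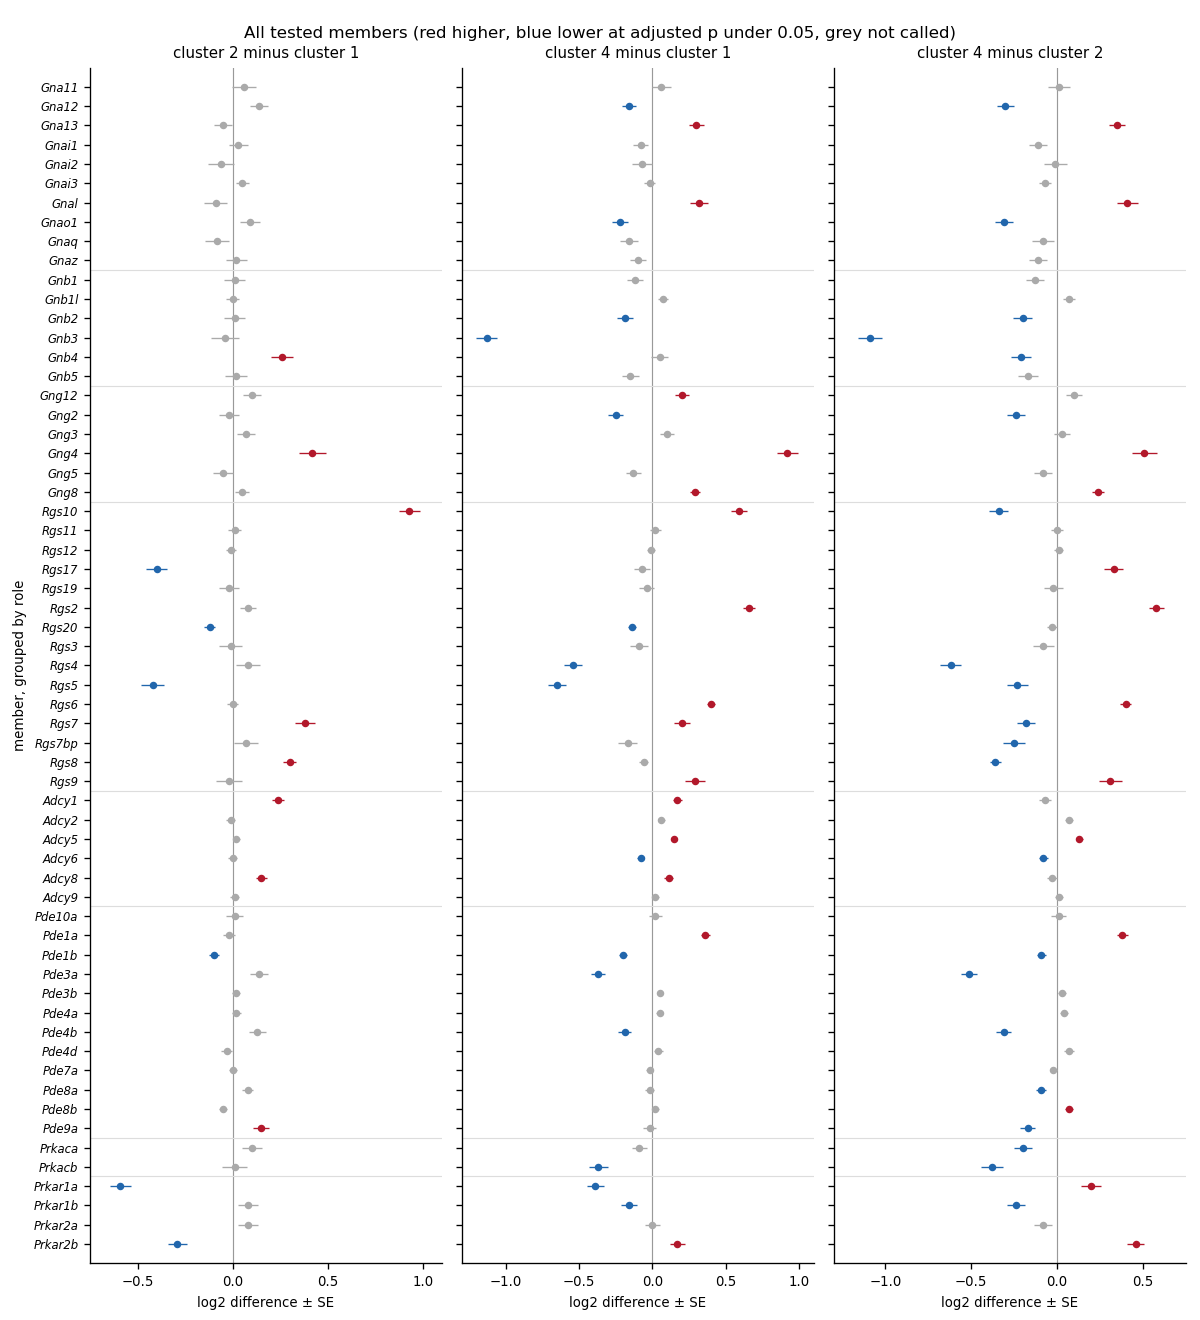
Log2 difference ± SE (x axis) of each of the 61 tested genes (y axis, grouped by role from alpha subunits at the top to PKA regulatory subunits at the bottom) for cluster 2 minus cluster 1, cluster 4 minus cluster 1 and cluster 4 minus cluster 2. Red points are higher and blue lower at an adjusted p under 0.05; Gnb3 in cluster 4 and Rgs10 in cluster 2 lie far from 0, while the alpha subunits Gnai1, Gnai2, Gnai3 and Gnaq stay near it.

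With limma, 23 of the 61 tested genes passed in 0 of the 3 comparisons (10 of the 23 had an unadjusted p under 0.05 in at least 1), and 7 passed in all of them: Gng4, Prkar1a, Prkar2b, Rgs10, Rgs5, Rgs7 and Pde1b. The 23 include the inhibitory alpha subunits Gnai1, Gnai2 and Gnai3, their relative Gnaz, the Gq class subunits Gnaq and Gna11, the widely used beta subunit Gnb1, Gnb5, Gng3 and Gng5. Gnai2, for example, was at 2.37, 2.72 and 2.46 in cluster 1, 2.24, 2.47 and 2.29 in cluster 2 and 2.35, 2.02 and 2.57 in cluster 4. These ranges overlap in every pair. For Gnaq the sets differed more than the clusters, with 1.22, 2.45 and 1.37 in cluster 1 and 1.27, 2.08 and 1.08 in cluster 2, and Set 2 was the highest in both. Failing the threshold does not show equal levels. On summed counts, 6 of the 23 passed in at least 1 comparison with size factors (Gnaq, Gnaz, Gnb1, Gnb5, Gng5 and Pde4d), and these and Adcy2 passed with voom weights.

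Between the large clusters 1 and 2, the 14 calls were 6 RGS genes, 2 cyclases, 2 phosphodiesterases, 2 PKA regulatory subunits, 1 beta and 1 gamma subunit. With limma 0 of 10 alpha subunits tested passed (differences from −0.09 to 0.14), and 1 had an unadjusted p under 0.05. With voom weights on summed counts 2 passed, Gnal (−0.26, adjusted p = 0.0265) and Gna12 (0.35, adjusted p = 0.0226). Of 6 beta genes, Gnb4 was higher in cluster 2, at 0.785, 0.893 and 1.16 in cluster 1 and 1.15, 1.21 and 1.52 in cluster 2 (0.26, SE 0.0577, adjusted p = 0.0091). The ranges overlap at their ends, and the call was lost when any 1 of the 3 sets was left out. Of 6 gamma genes, Gng4, a subunit found mainly in neurons, was higher in cluster 2. It was at 0.31, 0.448 and 0.449 in cluster 1 and 0.728, 0.819 and 1.06 in cluster 2, without overlap (0.42, SE 0.0706, adjusted p = 0.00112; 0.0697 without the block).

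Of 15 RGS genes tested, 3 were higher and 3 lower in cluster 2. Rgs10, a small RGS protein that acts on inhibitory alpha subunits, was at 0.913, 0.715 and 0.575 in cluster 1 and 2.64, 2.18 and 2.05 in cluster 2. The lowest set of cluster 2 was above the highest of cluster 1, and the mean was 3.12-fold higher (0.93, SE 0.0534, adjusted p = 2.18e-08). Rgs8, of the R4 family, was at 0.0644, 0.0579 and 0.0363 against 0.332, 0.416 and 0.231 (0.30, SE 0.0325, adjusted p = 1.51e-05). Rgs7, which works as a dimer with Gnb5, was at 0.838, 0.788 and 1.12 against 1.24, 1.35 and 1.86 (0.38, SE 0.054, adjusted p = 0.000243; 0.117 without the block). In the opposite direction, Rgs17, of the family that acts on Gz and Gi subunits, was at 0.66, 0.829 and 0.622 in cluster 1 and 0.283, 0.285 and 0.167 in cluster 2 (−0.40, SE 0.0562, adjusted p = 0.000196). Its relative Rgs20 was at 0.243, 0.212 and 0.235 against 0.0946, 0.109 and 0.157 (−0.12, SE 0.0283, adjusted p = 0.0153), a call lost without Set 1 (adjusted p = 0.173) or Set 2 (0.152).

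Rgs5, an R4 family gene best known from pericytes, was at 0.922, 0.583 and 1.37 in cluster 1 and 0.217, 0.203 and 0.307 in cluster 2 (−0.42, SE 0.0599, adjusted p = 0.000276). Cluster 1 was the higher in every set, and in 11 of 11 plates. Mural markers, summed over 6 genes in the same cells, stood at 0.00937 to 0.0191 in cluster 1 and 0.0154 to 0.0293 in cluster 2, with Kcnj8 at 0 in both. Their part in the Rgs5 difference was not tested. As shares of the level in the low-count cells of cluster 3, where Rgs5, Gng11 and Rgs16 are all high, cluster 1 held 4.44%, 27.2% and 4.84% for Rgs5. For Gng11 the shares were 0.092%, 0.523% and 0.149%. For Rgs16 they were 0.162%, 16.4% and 0.487% in cluster 1 and 0.608%, 67.7% and 3.01% in cluster 2, where the Set 2 level of the low-count cells was only 0.0661.

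Among 6 cyclases tested, Adcy1 and Adcy8, both stimulated by calcium and calmodulin, were higher in cluster 2. Adcy1 was at 0.055, 0.0685 and 0.0561 in cluster 1 and 0.306, 0.276 and 0.25 in cluster 2, 4.63-fold higher (0.24, SE 0.0326, adjusted p = 0.00013). Adcy8 was at 0.0244, 0.0537 and 0.0519 against 0.125, 0.164 and 0.209 (0.15, SE 0.0294, adjusted p = 0.00424), and its call was lost without Set 2 (adjusted p = 0.0778) or Set 3 (0.0728). Adcy2, Adcy6 and Adcy9 differed by 0.01 or less in size and did not pass. Of 12 phosphodiesterases, Pde9a, which degrades cGMP, was higher in cluster 2 (0.15, adjusted p = 0.0446) and Pde1b, activated by calcium and calmodulin, was lower (−0.10, adjusted p = 0.0208). Both overlap between the clusters, and both calls were lost when any 1 set was left out. Of the 12, 6 had an unadjusted p under 0.05. On summed counts, size factors called 0 of the 12 and voom weights 7, Pde1a among them (−2.65, adjusted p = 0.000149).

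Of the 4 PKA regulatory subunits, both that passed were lower in cluster 2, and 0 of the 2 catalytic subunits passed with limma, 0 also at an unadjusted p under 0.05. Prkar1a was at 7.02, 7.31 and 9.2 in cluster 1 and 3.99, 4.86 and 5.87 in cluster 2, without overlap (−0.59, SE 0.0572, adjusted p = 5.39e-06; 0.109 without the block). Prkar2b, the type II regulatory subunit of neurons and fat, was at 0.241, 0.412 and 0.309 in cluster 1 and 0.0177, 0.0335 and 0.0447 in cluster 2. Cluster 1 was 10.0-fold higher (−0.29, SE 0.0492, adjusted p = 0.00121). With cells thinned to 15000 counts, Prkar2b was counted in 33.0% of cluster 1 and 2.17% of cluster 2 cells, against 177 of 388 and 23 of 335 unthinned. Prkar1b was at 3.68, 4.12 and 4.87 against 3.95, 4.67 and 4.61 and did not pass (0.08, adjusted p = 0.548), nor did Prkar2a. The 3′ end of Prkar1a (chr11:109649405-109669656, plus strand) meets Fam20a on the other strand, and no source used here says whether strand was used in counting. Fam20a was at 0.341, 0.497 and 0.576 in cluster 1 and 0.0118, 0.0378 and 0.0209 in cluster 2, and its part in the Prkar1a difference was not tested. Genes on the other strand also lie over the 3′ ends of Gnal (Mppe1), Gna12 (Amz1), Gnb2 (Gigyf1) and Gng2 (Gm48283). The same is so for Gng3 (Bscl2), Gnaz (Rsph14), Adcy6 (Gm29331) and Pde8b (Gm48420), and the part of these genes was not tested either.

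**Figure D2:**
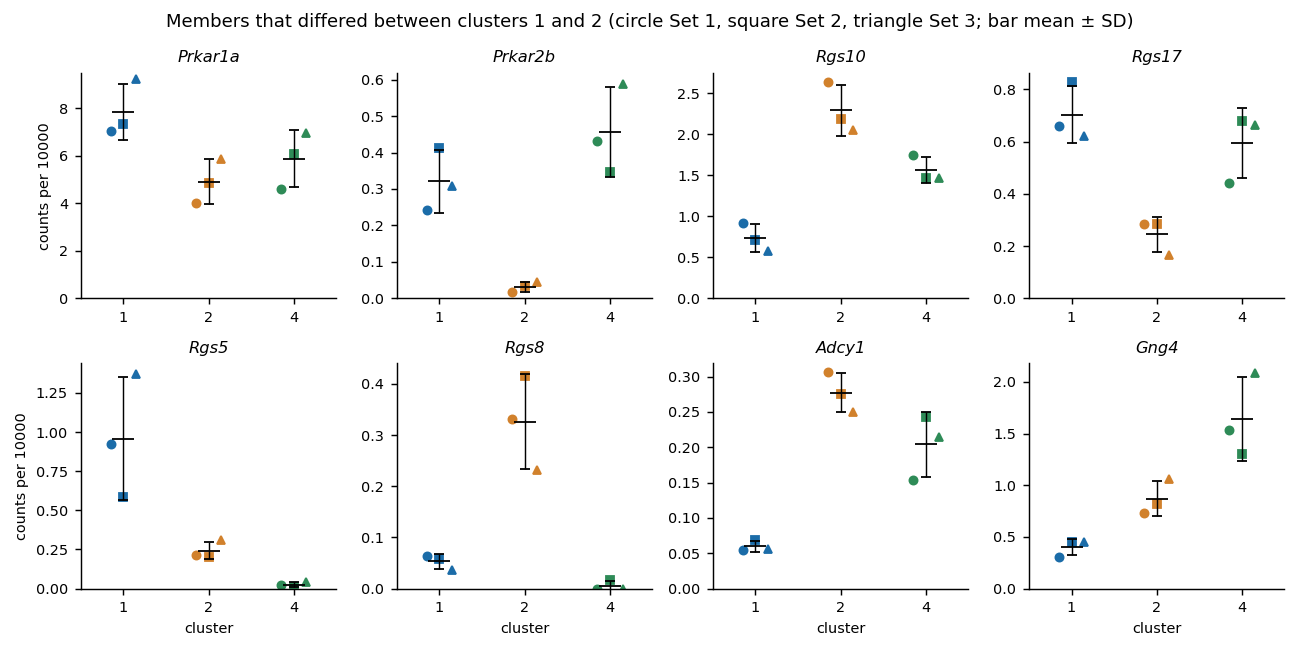
Mean counts per 10000 (y axis) of 8 genes in clusters 1, 2 and 4 (x axis), 1 point per set, with the mean and SD as bars (n = 3 sets). Points of clusters 1 and 2 do not overlap in any panel: Prkar1a, Prkar2b, Rgs17 and Rgs5 are lower and Rgs10, Rgs8, Adcy1 and Gng4 higher in cluster 2.

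The same 8 genes were compared plate by plate. Rgs5, Prkar1a, Prkar2b and Rgs17 were lower and Rgs10, Rgs8, Adcy1 and Gng4 higher in cluster 2 in 11 of 11 plates. Rgs10 ran from 0.514 to 1.11 (median 0.641) in cluster 1 and from 1.74 to 2.68 (median 2.39) in cluster 2. Prkar1a ran from 6.46 to 9.71 (median 7.3) and from 3.58 to 6.16 (median 4.65). The plates of a set share their animals and are not further replicates.

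Cluster 4 differed from both large clusters in every role. Among the alpha subunits, the changed ones were Gna13 and Gnal, higher, and Gnao1 and Gna12, lower. Gna13 was at 0.983, 1.1 and 0.768 in cluster 4, above 0.514, 0.73 and 0.543 in cluster 1 and 0.515, 0.601 and 0.437 in cluster 2 (0.30 and 0.35, SE 0.0489, adjusted p = 0.000388 and 0.000106). Gnal, the stimulatory subunit first known from olfactory neurons, was at 1.37, 1.69 and 1.38, against 0.909, 1.22 and 0.88 and 0.919, 1.04 and 0.578 (0.32 and 0.41, SE 0.0613, adjusted p = 0.00132 and 0.0002). The difference of Gnal from cluster 1 did not pass in thinned cells (0.23, adjusted p = 0.171). Gnao1, an abundant alpha subunit of neurons, was at 2.09, 2.73 and 2.15, against 2.68, 3.37 and 2.72 and 3.04, 3.74 and 2.67. The ranges overlap, but cluster 4 was the lower in each set (−0.22 and −0.31, SE 0.0534, adjusted p = 0.00725 and 0.000632). Gna12, the close relative of Gna13, was at 0.198, 0.298 and 0.355 against 0.566, 0.631 and 0.615 in cluster 2 (−0.30, adjusted p = 0.000318). Against cluster 1 Gna12 was lower by less (−0.16, adjusted p = 0.0244). That call was lost in thinned cells (−0.06, adjusted p = 0.55), with no filter (0.0712) and without the block (0.177). It was also lost without Set 1 (adjusted p = 0.106) or Set 2 (0.211). Without Set 1 or Set 2 the Gnao1 difference from cluster 1 no longer passed (adjusted p = 0.0511 and 0.0535).

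Gnb3, a beta subunit best known from cone photoreceptors, had the largest difference of any of the 61 genes. It was at 0.811, 0.833 and 0.832 in cluster 4, against 2.91, 2.55 and 3.7 in cluster 1 and 2.76, 2.4 and 3.44 in cluster 2. Levels in cluster 1 were 3.7-fold and in cluster 2 3.48-fold those of cluster 4, with no overlap (−1.13 and −1.09, SE 0.0713, adjusted p = 1.9e-08 and 3.57e-08). Gnb2 was also lower in cluster 4, by a smaller amount (−0.19 and −0.20, adjusted p = 0.0232 and 0.0168), while Gnb1 did not pass (−0.12 and −0.13, adjusted p = 0.138 and 0.114). On summed counts Gnb1 did pass as lower, with size factors (−0.24 and −0.21, adjusted p = 0.0183 and 0.0404) and with voom weights (−0.23 and −0.21, adjusted p = 0.0138 and 0.03). The Gnb2 calls were lost without Set 2 (adjusted p = 0.19 and 0.111) or Set 3 (0.178 and 0.145). Gnb4 was lower than in cluster 2 (−0.21, adjusted p = 0.0183), a call lost without Set 2 (adjusted p = 0.153) or Set 3 (0.139). Gnb3 lies at chr6:124834240-124840275 on the minus strand.

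Gamma subunits moved in both directions. Gng4 was at 1.53, 1.3 and 2.09 in cluster 4, above every set of clusters 1 and 2 (0.92 and 0.51, SE 0.0706, adjusted p = 1.44e-07 and 9.91e-05). It was counted in 54 of 54 cells. Gng8, first described in olfactory neurons, was at 0.421, 0.23 and 0.336, against 0.0771, 0.0606 and 0.0295 and 0.101, 0.122 and 0.0906 (0.29 and 0.24, SE 0.037, adjusted p = 2.96e-05 and 0.000268). Gng2, a common partner of Gnb1, was at 2.1, 2.87 and 1.64, against 2.98, 3.43 and 2.25 and 2.82, 3.36 and 2.07. It was lower in every set though the ranges overlap (−0.25 and −0.24, SE 0.0516, adjusted p = 0.0022 and 0.00398; 0.456 and 0.526 without the block). Against cluster 2, Gng2 also did not pass without Set 1 (adjusted p = 0.06) or in thinned cells (−0.14, adjusted p = 0.238). Gng12 was higher than in cluster 1 (0.20, adjusted p = 0.00595), a call lost without Set 1 (adjusted p = 0.0659) or Set 3 (0.0604). Gng3, a neuronal gamma subunit, did not pass (0.10 and 0.03).

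Of 15 RGS genes, 8 passed against cluster 1 (5 higher, 3 lower) and 10 against cluster 2 (4 higher, 6 lower). Rgs6, which pairs with Gnb5, was at 0.343, 0.543 and 0.4 in cluster 4 and at no more than 0.0109 in cluster 1 and 0.0158 in cluster 2 (0.40 and 0.40, SE 0.0295, adjusted p = 1.14e-07 and 1.37e-07). It reached the level filter only through cluster 4, and both calls were also made with no filter. It was counted in 25 of 54 cells of cluster 4, 10 of 388 of cluster 1, 10 of 335 of cluster 2 and in none of the 48 high-count cells of cluster 3, which allows a share of cells with a count of up to 6.25% there, for counting error only. Thinned to 15000 counts, the shares were 35.8% in cluster 4, 0.817% in cluster 1 and 1.55% in cluster 2. Rgs9, the R7 family member of striatum and photoreceptors, was at 0.487, 0.486 and 0.0982 in cluster 4. Set 3 was far below the other sets of cluster 4 and at the top of the range of cluster 1 (0.079, 0.0983 and 0.0463). Its differences (0.29 and 0.31, SE 0.0676, adjusted p = 0.0164 and 0.0114) did not pass without Set 1 (adjusted p = 0.0798 and 0.0711) or Set 2 (0.113 and 0.09).

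Rgs2, an R4 family protein that favours Gq and is induced by activity, was at 0.918, 1.08 and 0.733 in cluster 4. Cluster 1 had 0.133, 0.175 and 0.115 and cluster 2 had 0.189, 0.297 and 0.132, so the levels of cluster 4 were 6.47-fold and 4.42-fold higher (0.66 and 0.58, SE 0.0424, adjusted p = 2.28e-08 and 1.11e-07). Fos, the early response gene, was higher in cluster 4 as well, at 0.737, 0.809 and 1.22 against 0.271, 0.399 and 0.639 in cluster 1 (0.44, adjusted p = 2.08e-05), and its part in the Rgs2 difference was not tested. Rgs2 was counted in 45 of the 54 cells, Fos in 50 and both in 42. Rgs10 lay between the large clusters, at 1.75, 1.47 and 1.47 (0.59 against cluster 1 and −0.34 against cluster 2). Rgs17 in cluster 4, at 0.441, 0.678 and 0.664, was above cluster 2 (0.33, SE 0.0562, adjusted p = 0.000598), and its difference from cluster 1 did not pass (−0.07, adjusted p = 0.401).

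Lower in cluster 4 were Rgs5, Rgs8 and Rgs4. Rgs5 was at 0.0202, 0.00998 and 0.0416, under every set of cluster 1 and cluster 2 (−0.65 and −0.23, SE 0.0599, adjusted p = 1.39e-06 and 0.0122). It was counted in 4 of 54 cells, against 225 of 388 in cluster 1, and its difference from cluster 2 did not pass without Set 1 (adjusted p = 0.0876). Rgs8 gave 2 counts in all of cluster 4, at 0, 0.017 and 0, and was lower than in cluster 2 (−0.36, SE 0.0325, adjusted p = 1.31e-06). Against cluster 1, Rgs8 did not pass in the main fit. On summed counts it passed there as lower with size factors (−2.20, adjusted p = 0.00099) and voom weights (−2.06, adjusted p = 0.00303). It also passed on the log of the mean (−0.53, adjusted p = 0.0214). Rgs4, which acts on both Gi and Gq subunits, was at 2.36, 4.38 and 2.4 in cluster 4 and 4.19, 4.3 and 4.77 in cluster 1. The Set 2 value rested on a cell with 35.2 counts per 10000, and without that cell it was 3.04. On the mean of logs Rgs4 was lower than in cluster 1 and cluster 2 (−0.54 and −0.62, SE 0.062, adjusted p = 1.07e-05 and 3.65e-06). These calls did not hold on summed counts with size factors (−0.49 and −0.45, adjusted p = 0.214 and 0.265) or voom weights (−0.35 and −0.33, adjusted p = 0.483 and 0.531), nor on the log of the mean (adjusted p = 0.0669 and 0.0794).

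Smaller differences were found for other RGS genes. Rgs7 was higher than in cluster 1 and lower than in cluster 2 (0.20 and −0.18, adjusted p = 0.0174 and 0.027), and Rgs20 was lower than in cluster 1 (−0.14, adjusted p = 0.00182). Rgs7bp, which holds R7 family dimers at the membrane, was at 0.274, 0.507 and 0.666, against 0.696, 0.811 and 0.731 in cluster 2 (−0.25, adjusted p = 0.0116). It did not pass without Set 1 (adjusted p = 0.15) or Set 2 (0.0982), and Rgs7 against cluster 1 did not pass in thinned cells (0.02, adjusted p = 0.886) or without Set 2 (0.174) or Set 3 (0.0654). Against cluster 2, Rgs7 did not pass when any 1 set was left out. Gnb5, the obligate partner of the R7 family, was at 1.02, 0.711 and 1.07 in cluster 4 and 1.11, 1.03 and 1.3 in cluster 2, and did not pass (−0.17, adjusted p = 0.0504), though it did with size factors on summed counts (−0.31, adjusted p = 0.0444).

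Among the cyclases, Adcy1, Adcy8 and Adcy5 were higher in cluster 4 than in cluster 1. Adcy5, the calcium-inhibited cyclase known from striatum and heart, was at 0.114, 0.168 and 0.0948 in cluster 4, against 0.00554, 0 and 0.00661 in cluster 1 and 0.025, 0.0257 and 0.0156 in cluster 2. These levels do not overlap (0.15 and 0.13, SE 0.0204, adjusted p = 7.67e-05 and 0.000374). Adcy5 reached the level filter only through cluster 4, and both calls were also made with no filter. Between clusters 2 and 1 Adcy5 did not pass (0.02, adjusted p = 0.744) although its sets do not overlap there either, and voom weights on summed counts called it (adjusted p = 0.00334), with 3 counts in all of cluster 1. Adcy1 was at 0.154, 0.243 and 0.215 (0.17 against cluster 1, SE 0.0326, adjusted p = 0.00128; 0.0895 in thinned cells). Adcy8 was at 0.171, 0.116 and 0.112 (0.11, adjusted p = 0.0131) and did not pass without Set 1 (adjusted p = 0.117) or Set 2 (0.0638). Adcy6, the close relative of Adcy5, was slightly lower (−0.08 and −0.08, adjusted p = 0.0383 and 0.0436), a call lost when any 1 set was left out. Adcy2 and Adcy9 did not pass, and Adcy3 was counted at 0.00567 or less in every set of clusters 1, 2 and 4.

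Phosphodiesterases of cluster 4 differed by isoform. Pde1a was at 0.366, 0.557 and 0.346, against 0.0324, 0.0394 and 0.0032 in cluster 1 and 0.00758, 0.0035 and 0 in cluster 2 (0.36 and 0.38, SE 0.0318, adjusted p = 7.08e-07 and 4.61e-07). It too reached the level filter only through cluster 4, and both calls were also made with no filter. Its relative Pde1b, also activated by calcium and calmodulin, went the other way, at 0, 0.0222 and 0.0807 against 0.208, 0.147 and 0.278 in cluster 1 (−0.20, SE 0.0258, adjusted p = 4.73e-05). Against cluster 2 Pde1b was lower by less (−0.09, adjusted p = 0.0189), a call lost when any 1 set was left out. Pde3a, whose cAMP hydrolysis is inhibited by cGMP, was at 0.0556, 0.148 and 0.0563, against 0.415, 0.563 and 0.354 and 0.558, 0.814 and 0.428. Levels in cluster 1 were 5.12-fold and in cluster 2 6.92-fold those of cluster 4 (−0.37 and −0.51, SE 0.0466, adjusted p = 3.09e-05 and 1.34e-06). Pde4b, a cAMP-specific enzyme, was at 0.315, 0.499 and 0.314, against 0.546, 0.73 and 0.511 and 0.674, 0.836 and 0.671 (−0.19 and −0.31, SE 0.0449, adjusted p = 0.00728 and 0.000126). The difference from cluster 1 was lost without Set 1 (adjusted p = 0.0508) or Set 3 (0.0528). Pde4d and Pde10a, at 0.159, 0.156 and 0.193 and at 0.252, 0.501 and 0.281 in cluster 4, did not pass. Pde4d was above cluster 2 (0.0952, 0.12 and 0.0968) in each set, and on summed counts it passed there with size factors (0.86, adjusted p = 0.0218) and voom weights (0.92, adjusted p = 0.00577). Against cluster 2, Pde9a (−0.17) and Pde8a (−0.09) were lower and Pde8b (0.07) higher, with adjusted p-values of 0.0117, 0.0363 and 0.048. Each of these 3 calls was lost when 1 or more of the sets was left out.

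PKA subunits in cluster 4 also moved apart. Prkacb, the beta catalytic subunit, was at 0.915, 1.67 and 0.924, against 1.52, 2.18 and 1.61 and 1.7, 2.29 and 1.33. The ranges overlap through Set 2, which was the highest of all 3 clusters, but cluster 4 was the lower in each set (−0.37 and −0.38, SE 0.0652, adjusted p = 0.000656 and 0.000653; 0.192 and 0.191 without the block). Prkaca was lower than in cluster 2 only by a small amount (−0.20, adjusted p = 0.0145) and did not pass without Set 1 (adjusted p = 0.143) or Set 3 (0.0884). Prkar2b was at 0.432, 0.347 and 0.589, 14.3-fold higher than cluster 2 (0.46, SE 0.0492, adjusted p = 7.3e-06). Against cluster 1 it overlapped (0.17, adjusted p = 0.0221), and that call was lost without Set 1 (adjusted p = 0.151) or Set 3 (0.245). Prkar1a, at 4.58, 6.05 and 6.95, was lower than in cluster 1 (−0.39, SE 0.0572, adjusted p = 0.000132; 0.209 without the block). It was higher than in cluster 2 by 0.20 (adjusted p = 0.0233), which did not pass without Set 2 (adjusted p = 0.163) or Set 3 (0.138). Prkar1b was lower in cluster 4 (−0.16 and −0.24, adjusted p = 0.0394 and 0.00437), and against cluster 1 this was lost when any 1 set was left out. Against cluster 2 it did not pass without Set 1 (adjusted p = 0.0573) or Set 2 (0.0627).

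**Figure D3:**
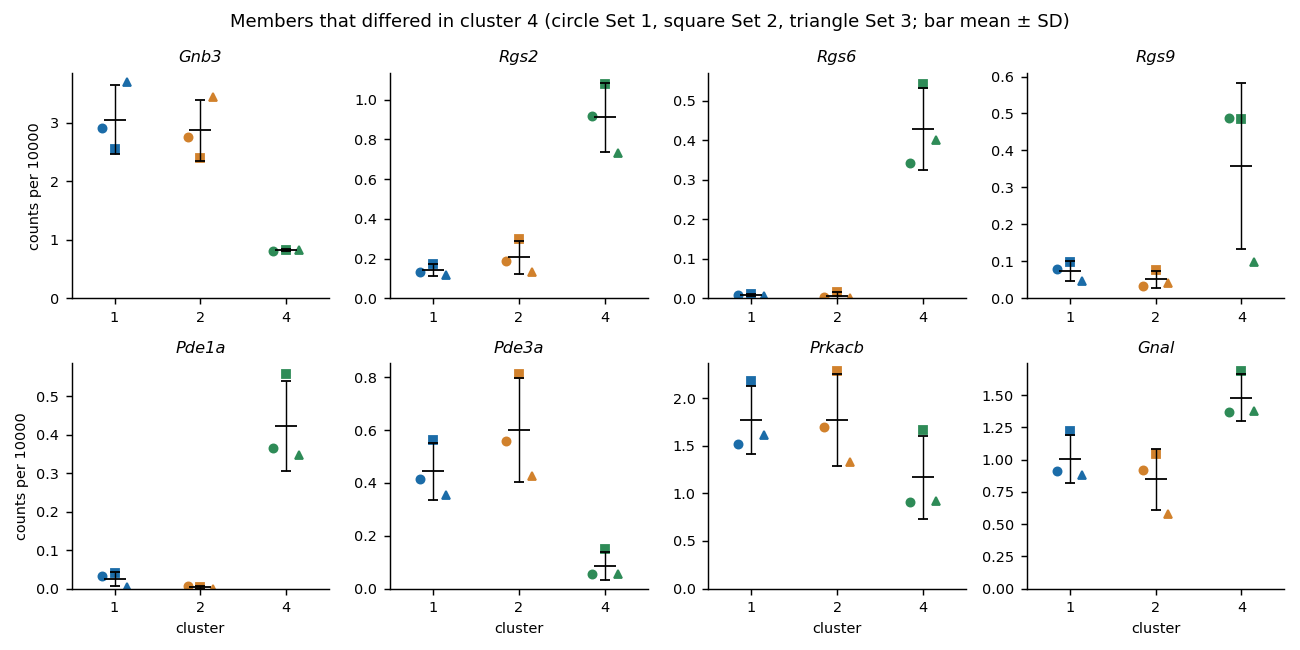
Mean counts per 10000 (y axis) of 8 genes in clusters 1, 2 and 4 (x axis), 1 point per set, with the mean and SD as bars (n = 3 sets). In cluster 4 the points of Gnb3 and Pde3a lie below and those of Rgs2, Rgs6, Pde1a and Gnal above every set of clusters 1 and 2, and Set 3 of Rgs9 stays at 0.0982.

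Cluster 4 was not uniform for these genes. Cells were split by whether Sst, the somatostatin gene, had a count, a split made after the values were seen and described with no test. Rgs6 was counted in 1 of the 18 cells with Sst and 24 of the 36 without, and Pde1a in 15 of the 18 and 8 of the 36. The split repeated in each set: Rgs6 in 0 of 3, 1 of 10 and 0 of 5 cells with Sst, and 5 of 9, 11 of 14 and 8 of 13 without. Pde1a was in 3 of 3, 9 of 10 and 3 of 5 cells with Sst, and in 3 of 9, 3 of 14 and 2 of 13 without. Rgs2 was in 10 of the 18 and 35 of the 36, with levels of 0.248 and 1.27. Gng4 was in all cells of both kinds, and Gnb3 was at 0.944 and 0.77. Cells with Sst had a median of 30410.5 counts and those without 36614.5. By set these medians were 19195 and 38726 in Set 1, 37859.5 and 45170 in Set 2, and 31001 and 32250 in Set 3. The part of depth in the split was not tested.

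In the high-count cells of cluster 3 the gamma subunit Gng8 and Rgs4 stood out. Against cluster 2, 15 of 58 tested genes passed (25.9%), 7 higher and 8 lower, where 6.41% of 10525 genes passed (4.05% higher, 2.37% lower), and the median absolute log2 difference was 0.078 against 0.038 over all genes. Gng8 (chr7:16891786-16895436, plus strand) was at 1.87, 1.97 and 1.1, against 0.101, 0.122 and 0.0906 in cluster 2, 15.8-fold higher (0.98, SE 0.105, adjusted p = 0.000418). No set of cluster 1, 2 or 4 reached these levels. It was counted in 41 of the 48 cells. Agrp, which encodes agouti related peptide and was at 3.23, 3.98 and 1.65, was counted in 43 of the 48, and both genes in 39. With each gene in most of the cells, this overlap does not show that they go together. Thinned to 15000 counts, Gng8 was in 70.8% of these cells and 13.0% of cluster 2.

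Rgs4 (chr1:169741477-169747642, minus strand) was at 7.35, 12.4 and 11.3, against 3.79, 4.96 and 4.36 in cluster 2, 2.36-fold higher (0.90, SE 0.0801, adjusted p = 9.29e-07). Single cells reached 18.4, 33.4 and 33.2, and without the highest cell of each set the means were 6.43, 11.2 and 9.81, still above every set of the other neuron clusters. Rgs10 was lower than in cluster 2, at 1.39, 0.976 and 1.03 (−0.63, SE 0.055, adjusted p = 1.95e-07). Gng8, Rgs4 and Rgs10 kept their calls under each alternative setting. Gnal was higher, at 1.34, 1.77 and 1.12 against 0.919, 1.04 and 0.578 (0.40, SE 0.0633, adjusted p = 0.000396), but did not pass in thinned cells (0.33, adjusted p = 0.124). Gnb4 was lower, at 0.651, 0.685 and 1.06 (−0.34, SE 0.0576, adjusted p = 0.000634).

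The other calls in these cells were weaker. Rgs17 (0.28), Rgs19 (0.21), Rgs20 (0.11) and Gng3 (0.17) were higher, and Pde3a (−0.22), Prkacb (−0.26), Gng4 (−0.25), Pde9a (−0.17), Rgs8 (−0.13) and Pde1b (−0.09) lower, with adjusted p-values of 0.00344 to 0.0403. Each of these 10 lost its call when 1 or more of the sets was left out. The high-count cells of cluster 3 had a median of 68058 counts against 40121 in cluster 2. With every cell thinned to 15000 counts, 6 of the signalling genes passed, 5 of them among the 15. Leaving out Set 1, Set 2 or Set 3 left 6, 6 and 8, and the fit without the block left 3.

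**Figure D4:**
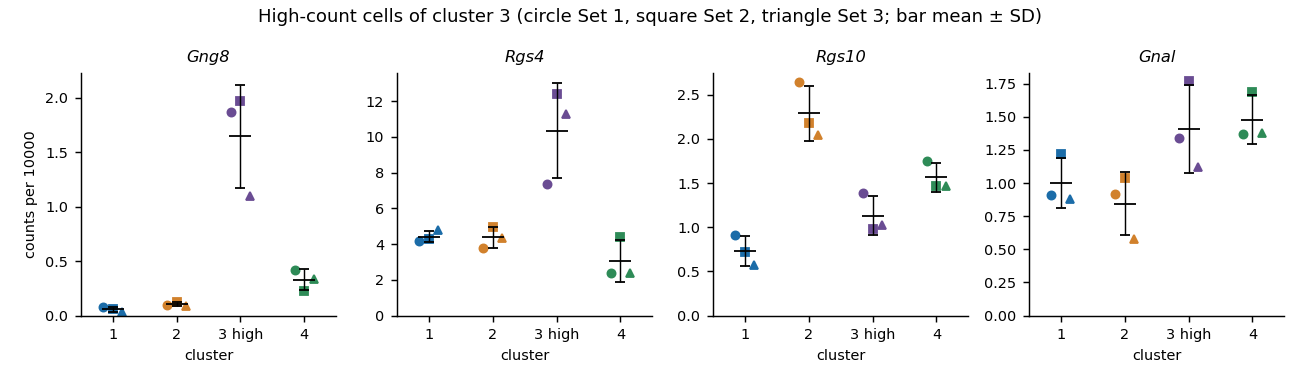
Mean counts per 10000 (y axis) of Gng8, Rgs4, Rgs10 and Gnal in clusters 1, 2, the high-count cells of cluster 3 and cluster 4 (x axis), 1 point per set, with the mean and SD as bars (n = 3 sets). Gng8 and Rgs4 are higher in the high-count cells of cluster 3 than in any set of the other clusters.

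The 53 low-count cells of cluster 3 carried another set of these genes and are described with no test, since their median of 2658 counts leaves 1 count worth several counts per 10000. Rgs5 was at 20.8, 2.14 and 28.2, Gng11 at 13.8, 2.92 and 10.6 and Rgs16 at 2.65, 0.0661 and 1.71. Gng11, a gamma subunit, was at 0.0908 or less in every set of clusters 1, 2 and 4. Set 2 was the low one for all 3 genes. The sums of 8 endothelial markers (31.8, 10.1 and 39.7) and 6 mural markers (4.34, 0.329 and 5.32) were lowest in Set 2 as well. Those of 4 fibroblast markers (32.2, 44.1 and 0.373) and of the glial markers (24.0, 79.6 and 13.6) were highest there. The part of any of these cells in the gene levels was not tested. Noradrenergic markers were at 37.3, 76.2 and 22.4 in the same cells, so the cells carried markers of several cell types, in proportions that differed between the sets.

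Gnai2, the inhibitory alpha subunit common outside neurons, was at 7.46, 4.81 and 7.48 in the low-count cells, above every set of cluster 1 (2.37, 2.72 and 2.46). Gng5 was at 4.94, 1.92 and 4.21, against 2.0, 1.53 and 1.72, and overlapped through Set 2. Gng3, a neuronal gamma subunit, was at 3.86, 6.06 and 0.373, below every set of cluster 1 (14.8, 13.6 and 11.0). Set 3, with 7 cells, had no count of Gnao1, Rgs4 or Gng2. These 7 cells had the highest endothelial sum and the lowest noradrenergic sum of the 3 sets.

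**Figure D5:**
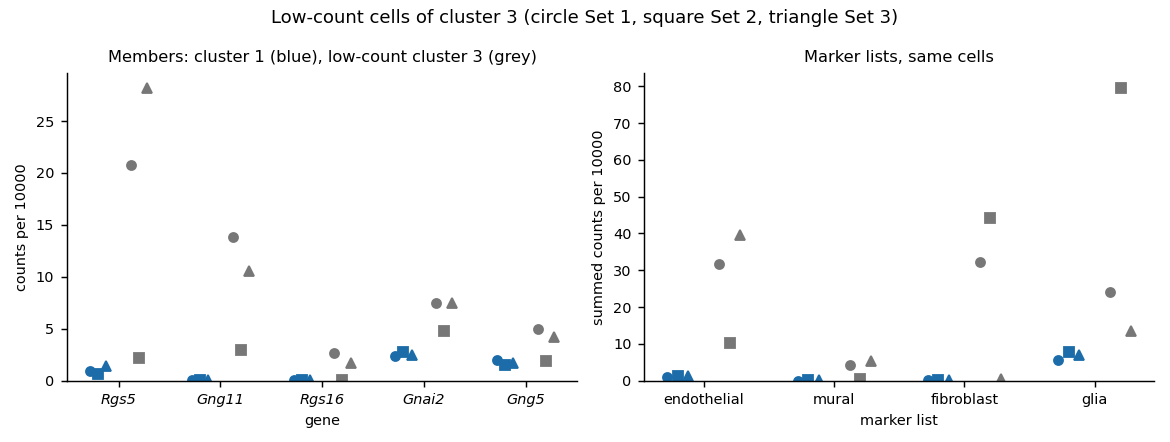
Left, mean counts per 10000 (y axis) of 5 genes in cluster 1 (blue) and in the low-count cells of cluster 3 (grey), 1 point per set; right, summed counts per 10000 of the endothelial, mural, fibroblast and glial marker lists in the same cells. Set 2 (squares) is lowest for Rgs5, Gng11 and Rgs16 and for the endothelial and mural sums, and highest for the glial sum.

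The 16 genes too low to test in clusters 1, 2 and 4 were Gna14, Gng7, Gng10, Gng11, Gng2-ps1, Rgs16, Rgs22, Rgs9bp, Adcy3, Adcy4, Adcy7, Adcy10, Pde1c, Pde2a, Pde4c and Pde7b. Among them Gng11 and Rgs16 were the ones high in the low-count cells. Adcy4, a cyclase of endothelium, gave counts there in Set 3 (1.4), and at most 0.00194 in any set of clusters 1, 2 and 4. Gng10 did not exceed 0.0032 in any set of any cluster. Rgs22 was at 0.0401 in cluster 1 and 0.0758 in cluster 2 in Set 2, and at 0 in Set 1 of both.

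Neighbouring genes of the pathway, from lists fixed by function, are given for context. Gnas, the gene of the stimulatory alpha subunit, was at 0.974, 1.05 and 1.06 in cluster 1. It was at 3.48, 4.47 and 2.66 in cluster 2 and 7.48, 8.02 and 8.37 in cluster 4. Reads came from 3′ ends and were counted per gene, so transcripts of Gnas were not told apart. The order of the clusters was the same in each set, with no overlap (1.14 for cluster 2 against cluster 1, 2.15 for cluster 4 against cluster 1 and 1.01 for cluster 4 against cluster 2, SE 0.0959, adjusted p = 5.49e-06, 5.39e-09 and 7.98e-06). The share of all tested genes that passed was 8.86% between clusters 2 and 1, 21.3% between clusters 4 and 1, 20.0% between clusters 4 and 2 and 6.41% for the high-count cells of cluster 3, and each count below is to be read against it. Of 13 cAMP response factors tested, Crem was the one that passed, at 1.42, 1.35 and 1.24 in cluster 4 against 0.462, 0.522 and 0.489 and 0.363, 0.437 and 0.33 (0.60 and 0.70, adjusted p = 2.49e-07 and 6.75e-08). With limma 0 of the 13 passed between clusters 2 and 1, and 0 had an unadjusted p under 0.05, while voom weights called 3.

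In the phospholipase C branch, 2 of 12 tested genes were higher and 2 lower in cluster 2 than in cluster 1, and 5 higher and 4 lower in cluster 4 than in cluster 1. Plcb4, a phospholipase activated by Gq, was at 2.25, 2.68 and 2.02 in cluster 1 and 1.04, 1.27 and 0.914 in cluster 2 (−0.67, adjusted p = 4.26e-07), and at 0.741, 1.13 and 0.751 in cluster 4. Prkca, a protein kinase C, was at 0.95, 0.96 and 0.836 in cluster 1, 1.48, 1.46 and 1.32 in cluster 2 and 0.311, 0.256 and 0.23 in cluster 4 (0.35, −0.55 and −0.90 for the 3 comparisons). The clusters do not overlap for Prkca. Dgkb, a diacylglycerol kinase, was higher in cluster 2 than in cluster 1 (0.26, adjusted p = 0.003), a call lost without Set 1 (adjusted p = 0.0525) or Set 2 (0.0748), and Prkce was higher in cluster 4 (0.27 and 0.30).

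Other cAMP effectors gave 1 call of 10 between clusters 2 and 1: Rapgef4 (Epac2, a cAMP-gated exchange factor) was at 0.209, 0.263 and 0.209 in cluster 1 and 0.0263, 0.0311 and 0.0158 in cluster 2 (−0.22, adjusted p = 0.000262). Pkib, a PKA inhibitor, was higher and Rapgef2 lower in cluster 4 than in cluster 1 (0.28 and −0.15, adjusted p = 0.00141 and 0.00132). Pkib did not pass without Set 2 (adjusted p = 0.0516). Among 14 PKA anchoring proteins, 0 passed with limma between clusters 2 and 1 (1 at an unadjusted p under 0.05, and 3 called with voom weights), 2 were higher and 1 lower in cluster 4 than in cluster 1, and 3 and 1 than in cluster 2. Akap12 was at 4.06, 4.68 and 3.06 in cluster 4 against 2.23, 2.65 and 1.89 in cluster 1 (0.55, adjusted p = 1.94e-06), and Akap7 went down (−0.45, adjusted p = 0.000125). Map2, which binds type II regulatory subunits, was higher in the high-count cells of cluster 3 than in cluster 2 (0.28, adjusted p = 0.0113), a call lost without Set 2 (adjusted p = 0.151) or Set 3 (0.207). In the list of other phosphodiesterases and guanylate cyclases, Gucy1a3, a soluble guanylate cyclase subunit, was lower in those cells, at 0.558, 0.532 and 0.391 against 1.37, 1.61 and 1.19 (−0.66, adjusted p = 2.71e-07). Pde11a was higher there, at 0.42, 0.434 and 0.219 against 0.103, 0.12 and 0.0742 (0.28, adjusted p = 0.000177), and Prkg2, a cGMP kinase, was higher in cluster 4 than in cluster 2 (0.39, adjusted p = 0.000339).

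At the receptor, Arrb1, an arrestin, was at 0.278, 0.319 and 0.453 in cluster 4 against 0.0731, 0.0743 and 0.0805 in cluster 1 (0.29, adjusted p = 1.58e-05), and the receptor kinase Grk3 was lower, at 0.192, 0.451 and 0.322 against 0.701, 0.797 and 0.555 (−0.33, adjusted p = 0.000245). Of the 5 receptor kinases and arrestins tested, 0 passed with limma between clusters 2 and 1, and 0 had an unadjusted p under 0.05, while voom weights called 2. Of 7 chaperones and exchange modulators, Rasd2 was higher in cluster 2 than in cluster 1 (0.09, adjusted p = 0.00692), and Rasd2 and Ric8a were lower in cluster 4 than in cluster 2 (−0.11 and −0.23). The Rasd2 difference between clusters 2 and 1 was lost when any 1 set was left out, and that of Ric8a without Set 1 (adjusted p = 0.0788) or Set 2 (0.116). Of 3 G protein gated channel genes tested, Kcnj3 (GIRK1) was at 0.0295, 0.066 and 0.0261 in cluster 1, 0.151, 0.235 and 0.117 in cluster 2 and 0.214, 0.346 and 0.206 in cluster 4 (0.15, 0.24 and 0.09, adjusted p = 0.00288, 1.97e-05 and 0.0489). The first did not pass without Set 2 (adjusted p = 0.0601), and the last was lost when any 1 set was left out.

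Correlations from cell to cell within a cluster were taken over 20 genes in cluster 1, 22 in cluster 2 and 21 in cluster 4. They do not cover the other tested genes, nor replace the split of cluster 4 by Sst given above. After thinning to 15000 counts, the median Spearman correlation over 190 gene pairs in 367 cells of cluster 1 was 0.00592, with a range of −0.161 to 0.207. It was −0.00314 over 231 pairs in 323 cells of cluster 2 and 0.0178 over 210 pairs in 53 cells of cluster 4, where single pairs ran from −0.295 to 0.368. The cells of a cluster share libraries, and in counts this sparse a weak correlation is no finding.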

How the data were processed

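Single cells of stellate ganglia were sorted into plates and their 3′ ends sequenced, per the labels' protocols. The authors deposited each cell's counts per 10000 after adding 1 and taking the natural log (ln). Whole counts (tolerance 0.001) were recovered for 100% of non-zero values. Reads were processed with STAR 2.5.3a, featureCounts 1.5.3, SAMtools 1.4.1 and Seurat on GRCm38, per the submitters' processing notes. Handling of strand, molecular identifiers and clustering is stated in none of the sources used here. No doublet caller was run.

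Cluster 3 was split at 10000 counts per cell. For each set and cluster, log2(1 + counts per 10000) was averaged over cells. The means were fitted with limma 3.58.1 in R 4.3.3 (trend and robust) with set as a block. Genes averaging at least 0.05 counts per 10000 entered, with Benjamini-Hochberg adjustment over all genes tested and a threshold of 0.05. Clusters 1, 2 and 4 were fitted together, and the high-count cells of cluster 3 in a fit with the other clusters. Deviations from cluster means correlated at 0.648 to 0.898 within a set and at −0.756 to 0.0344 between sets. Subtracting a mean over 3 sets lowers the values between sets by construction, so their sign shows nothing about pairing. Same-numbered sets are the same pooled animals, so the block was kept. Tested on simulated data from cluster 1 cells split into groups of equal size, the fit called 49 of 97 genes at 2-fold, 77 of 94 at 4-fold and 17 of 10197 without a change. When cells were drawn at cluster 4's numbers, the same steps recovered 40 of 95 genes at 2-fold and 68 of 92 at 4-fold, with 7 of 10177 unchanged genes passing. Changes were simulated only as decreases, among randomly split cells of cluster 1. The rates therefore do not cover genes higher in a cluster, or clusters of unlike depth.

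The signalling genes, lists and tests were chosen with earlier results of these data known. Named were the 8 called genes with the largest differences in each direction of a comparison, the highest gene of each role, a fixed list of well-known genes, and in each neighbouring list the 2 called genes with the smallest p. Other genes named, Agrp, Fam20a, Fos and Sst among them, were chosen after their values were seen. Gene positions are from GENCODE M21 (77 of 77 matched), and promoters from RefSeq. Protein sequences were not analysed here.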

Additional observations from a re-analysis of the deposited data

How the results depend on the processing

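Of the 93 called differences of the signalling genes, 0 changed sign in the alternatives run, and 37 kept their call in each. Over 977 alternative values of these calls, 237 no longer passed. Among 1532 alternative values of differences not called, 51 passed, and 127 values not called either way changed sign. Of 63 called differences of neighbouring pathway genes, 28 kept their call in each alternative and 0 changed sign. Between clusters 2 and 1, where 14 of the signalling genes were called, voom weights gave 26, a minimum of 0.5 counts per 10000 gave 6 and the fit with no replicate block gave 7, and leaving out a set gave 9 to 10. Between clusters 4 and 1 (30 called), the 0.5 minimum gave 16 and no replicate block 17, and leaving out a set gave 21 to 23. Between clusters 4 and 2 (34 called), these gave 19, 17 and 21 to 25. Median counts per cell were 28396, 40121 and 35488.5 in clusters 1, 2 and 4. Thinning to 15000 counts also removed calls here, counted over the signalling and neighbouring pathway genes together. Between clusters 2 and 1 it kept 15 calls and lost 7. Between clusters 4 and 1 it kept 36 and lost 20, and between clusters 4 and 2 it kept 41 and lost 17. For the high-count cells of cluster 3 against cluster 2 (15 called), thinning to 15000 counts gave 6, no filter on low values 5, no replicate block 3, and leaving out a set 6 to 8. The 0.5 minimum left 30 of the genes tested (31 in the fit with cluster 3), so fewer could be called. For the other alternatives the cause was not tested. The 54 cells of cluster 4 and 48 high-count cells of cluster 3 limit what could be detected there.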
